A study of Mus musculus with 9 samples.

Results

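Pan02KD cells were compared with their own control line, Pan02KD-CTL, on 4 of the 9 samples of the series, chosen by their titles: 1 Clariom S mouse array of each line in normal medium and 1 of each line after 24 hours with a low dose of H2O2. Pan02 is a murine pancreatic ductal adenocarcinoma cell line. All lines of the series carry a stably integrated lentivirus with a GFP tag and were selected with puromycin, Pan02KD after transduction with an shRNA against *Nlrx1* and Pan02KD-CTL with a scrambled shRNA. Of the several shRNA sequences supplied by the manufacturer, 1 was used, each line is 1 transduced population, and the labels do not say that the media were separate transductions, so p-values measure the spread between arrays and not between transductions. The other samples include 4 arrays of Pan02OE, which carries an *Nlrx1* open reading frame, and of its control Pan02OE-CTL in the same media. These 4 arrays enter the estimate of the spread, and their values are given beside those of Pan02KD where the systems are compared. A further sample, titled MRSL_Control, has a column without values and was not used. The comparison asks which genes differ between cells with and without the shRNA against *Nlrx1*, and whether the difference is the same when the cells are challenged with an oxidant.

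NLRX1 is a member of the NOD-like receptor family that sits at mitochondria. It is known for attenuating NF-κB and MAVS-dependent interferon signaling and for affecting reactive oxygen species, and in tumor cells it has been tied to MAPK and AKT signaling. The lists of genes described here cover these pathways, together with the oxidant defence, the lysosome, the matrix and the identity of the cells. They and their members were chosen with earlier results of these data known. The share called in a list is therefore a description and no independent support.

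*Nlrx1* itself was not lower in the arrays labelled Pan02KD. It read 6.68 in normal medium and 6.56 in H2O2 (log2 signal) in Pan02KD, and 5.96 and 6.40 in Pan02KD-CTL. The values of Pan02KD lay above those of Pan02KD-CTL, and the difference of 0.44 (SE 0.17, 95% interval 0.05 to 0.84) did not pass the test (adjusted p = 0.15, limma). All 4 values are below the brightest of the 23 background probe sets of the array (7.48), so that a partial loss of a transcript at this level could not be measured. The study checked the lines for NLRX1 protein by western blot and kept the only shRNA that lowered it effectively. Protein was not measured on these arrays, and the loss named by the label is not seen in the RNA, where it could not be measured. Every difference given here is that of the arrays labelled Pan02KD minus those labelled Pan02KD-CTL.

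Markers of ductal cells were above background more often than those of other cells of a pancreas or a tumor. In the ductal list 7 of 10 genes had a mean above the brightest background probe set in either line. This held for 3 of 10 fibroblast, 1 of 12 myeloid and 1 of 12 T and B cell genes, and for 0 endothelial, acinar or islet genes. *Krt8* and *Krt18*, keratins of simple epithelia, read 13.68 to 14.05 and 15.39 to 16.12 on the 4 arrays, and *Pdx1*, a pancreatic transcription factor, 8.95 to 9.26. *Epcam*, a surface marker of epithelia, was absent, at 4.38 to 4.79. *Ptprc* (6.07 to 6.22), *Cd3e* (4.13 to 4.45), *Pecam1* (5.32 to 5.89), *Cela1* (5.13 to 5.53) and *Ins2* (4.80 to 5.45), which define leukocytes, T cells, endothelium, acinar cells and beta cells, were all in the range of the background. Of the marker lists, 0 of 12 T and B cell, 0 of 9 endothelial, 0 of 13 acinar and 0 of 10 islet genes were called in either direction by limma, and at an unadjusted p under 0.05 these were 0, 0, 1 and 4 genes. The myeloid list had 1 of 12 genes called, *Cd14*, which fell. The fibroblast list had 3 of 10, *Dcn* and *Dpt* higher and *Pdgfrb* lower, while the ductal list had 4 of 10, all lower. The array medians over 19505 genes lay between 6.51 and 6.58 on all 8 arrays of the series, and the median difference between the lines over these genes was -0.0032.

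In all, 2645 of 19505 genes (13.6%) differed between Pan02KD and Pan02KD-CTL at an adjusted p under 0.05 (limma with Benjamini-Hochberg adjustment, line and medium as terms), and only such genes are said to rise or fall. Of these, 1480 (7.59%) were higher and 1165 (5.97%) lower in Pan02KD. Genes at background are seldom called, and among the 8225 genes with a mean signal above background 14.3% were higher and 11.3% lower. The counts in the gene lists are to be read against both pairs of shares, since many list members lie above background. A difference of 2-fold or more was reached by 1071 of the called genes, 603 higher and 468 lower. All 2645 had the same sign in both media. The test averages the media and counts their disagreement as spread, so genes of opposite sign could hardly be called. The leading genes were also chosen for the same sign in both media. Lines that do not overlap in called genes are therefore no separate support. The control line read below the brightest background probe set on both arrays for 201 of the genes that rose, and Pan02KD did so for 130 of those that fell, so that the folds of these genes are given as bounds against that probe set, which are smaller than the measured differences. For another 349 both lines lay there. Leaving out an array lowered the number of calls, to 1213 without Pan02KD in normal medium, 1055 without Pan02KD in H2O2 and 1598 without Pan02KD-CTL in H2O2. Over all genes, the Euclidean distance between the lines was 76.4 in normal medium and 84.1 in H2O2. Between the media it was 39.0 in Pan02KD and 51.7 in Pan02KD-CTL, and 39.1 in Pan02OE and 37.7 in Pan02OE-CTL.

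**Figure D1:**
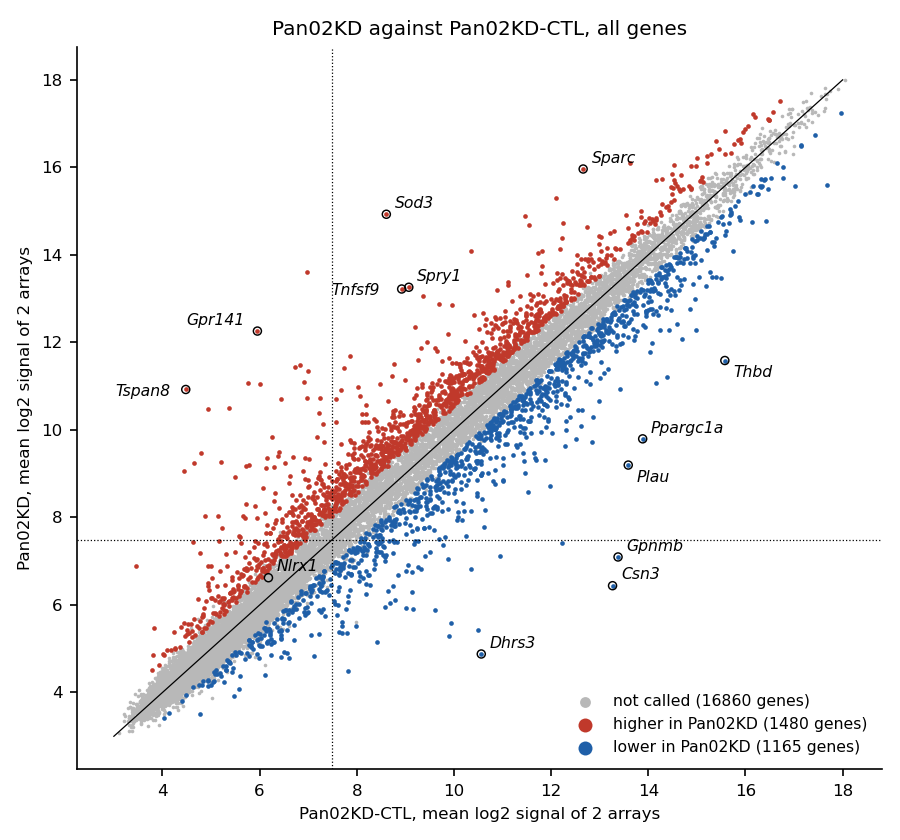
Mean log2 signal of each of 19505 genes in Pan02KD-CTL (horizontal) and Pan02KD (vertical), each the mean of 2 arrays, with called genes in red (1480 higher) and blue (1165 lower), the line of equal signal and, dotted, the brightest background probe set (7.48). *Nlrx1* lies near the line of equal signal in the lower left, and *Sod3*, *Tspan8* and *Csn3* lie far from it.

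The genes that rose most in Pan02KD were *Tspan8*, *Sod3* and *Gpr141*. *Tspan8*, a tetraspanin linked to invasion of carcinoma cells, read 10.67 in normal medium and 11.18 in H2O2 in Pan02KD, and 4.56 and 4.40 in Pan02KD-CTL. *Sod3*, the extracellular superoxide dismutase, read 14.92 and 14.94 in Pan02KD, and 9.19 and 8.02 in Pan02KD-CTL. *Gpr141*, an orphan receptor, read 12.24 and 12.28 against 5.92 and 5.99. Each gene was high on both Pan02KD arrays and the lines did not overlap. *Sod3* was the only one of them above background in both lines, 79.9-fold higher in Pan02KD (log2 difference 6.32, SE 0.28, adjusted p = 2.5e-06, limma). *Tspan8* was at least 10.9-fold higher (measured log2 difference 6.44, SE 0.19) and *Gpr141* at least 27.5-fold (6.30, SE 0.19), where "at least" sets the higher line against the brightest background probe set.

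The others of the 12 leading genes that rose were not measured above background in Pan02KD-CTL. *Dcn*, the matrix proteoglycan decorin, read 10.20 and 10.74 in Pan02KD against 4.98 and 4.89, at least 7.94-fold higher, and *Dpt*, the matrix protein dermatopontin, 9.39 and 9.08 against 4.53 and 4.76, at least 3.38-fold higher. *Tnfsf15*, the TNF family ligand TL1A, read 10.99 and 11.14 against 5.67 and 5.84 (measured log2 difference 5.31). All 3 genes read below background on both control arrays and well above it on both Pan02KD arrays. *Nol3*, which encodes the apoptosis repressor ARC, read 9.47 and 8.64 against 4.31 and 4.56 (at least 2.98-fold), and *Dio2*, the deiodinase that activates thyroid hormone, 11.32 and 11.54 against 7.19 and 6.27 (at least 15.5-fold). *Slurp1*, *Pmp22*, the potassium channel gene *Kcnq1* and the phospholipase gene *Pla1a* completed the 12, with measured log2 differences of 4.66 to 5.13.

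Among genes above background in both lines, those that rose most after *Sod3* were *Tnfsf9*, the ligand of the costimulatory receptor 4-1BB, and *Spry1*, a feedback inhibitor of receptor tyrosine kinase signaling. *Tnfsf9* read 12.98 and 13.46 in Pan02KD and 9.12 and 8.73 in Pan02KD-CTL, 19.6-fold higher (log2 difference 4.30, SE 0.20). *Spry1* read 13.36 and 13.16 against 9.41 and 8.73, 18.3-fold higher (4.19, SE 0.18). In both genes the Pan02KD-CTL array in H2O2 was the lowest. The focal adhesion gene *Fermt1* (3.81), the microtubule gene *Map6* (3.73), the stress-induced *Sesn3* (3.71), the kinase gene *Nuak1* (3.68), the IGF-binding *Igfbp4* (3.42), the matricellular *Sparc* (3.30) and the cytochrome *Cyp1b1* (3.23) followed, each with an SE of 0.15 to 0.21.

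The genes that fell most were *Csn3*, the milk protein kappa-casein, and *Gpnmb*, a transmembrane glycoprotein of melanosomes and lysosomes. *Csn3* read 6.41 and 6.47 in Pan02KD and 13.29 and 13.24 in Pan02KD-CTL, at least 55.3-fold lower (measured log2 difference -6.82, SE 0.17, adjusted p = 2.2e-07, limma). *Gpnmb* read 7.12 and 7.07 against 13.04 and 13.71, at least 59.8-fold lower (-6.28, SE 0.25). Both were bright on the control arrays and at background on both Pan02KD arrays. *Dhrs3*, the reductase that returns retinal to retinol, read 4.67 and 5.09 against 10.49 and 10.63 and was at least 8.49-fold lower. *Csf2*, which encodes the cytokine GM-CSF, read 5.66 and 5.53 against 10.66 and 9.21 and was at least 5.50-fold lower. *Akr1c18*, an aldo-keto reductase of progesterone metabolism, read 7.21 and 7.61 against 12.40 and 12.06 (measured difference -4.82, SE 0.25), and 1 of its 2 Pan02KD arrays lay below the brightest background probe set. *P2rx7*, *Pgap1*, *Prss22* and *Megf10* were the others at background in Pan02KD, and of these *P2rx7* alone stood far apart between the control arrays.

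*Plau*, *Ppargc1a* and *Thbd* fell from a bright to a middle signal. *Plau*, the urokinase protease, read 9.58 and 8.82 in Pan02KD and 13.54 and 13.64 in Pan02KD-CTL, 21.0-fold lower (-4.39, SE 0.22, adjusted p = 5.6e-06, limma). *Ppargc1a*, the coactivator PGC-1α that drives the making of mitochondria, read 9.81 and 9.78 against 13.77 and 14.00, 17.0-fold lower (-4.09, SE 0.19). *Thbd*, the anticoagulant receptor thrombomodulin, read 11.70 and 11.47 against 15.63 and 15.52, 15.9-fold lower (-3.99, SE 0.16). The lines did not overlap in any of these genes. *Itih2* (-3.25), *Dpp7* (-2.96), *Impact* (-2.85) and *Pip5k1b* (-2.72) were the next, together with 3 genes of the proliferin family, *Prl2c2* (-3.19), *Prl2c5* (-3.10) and *Prl2c3* (-3.09), whose sequences are nearly identical so that their probes may read each other.

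**Figure D2:**
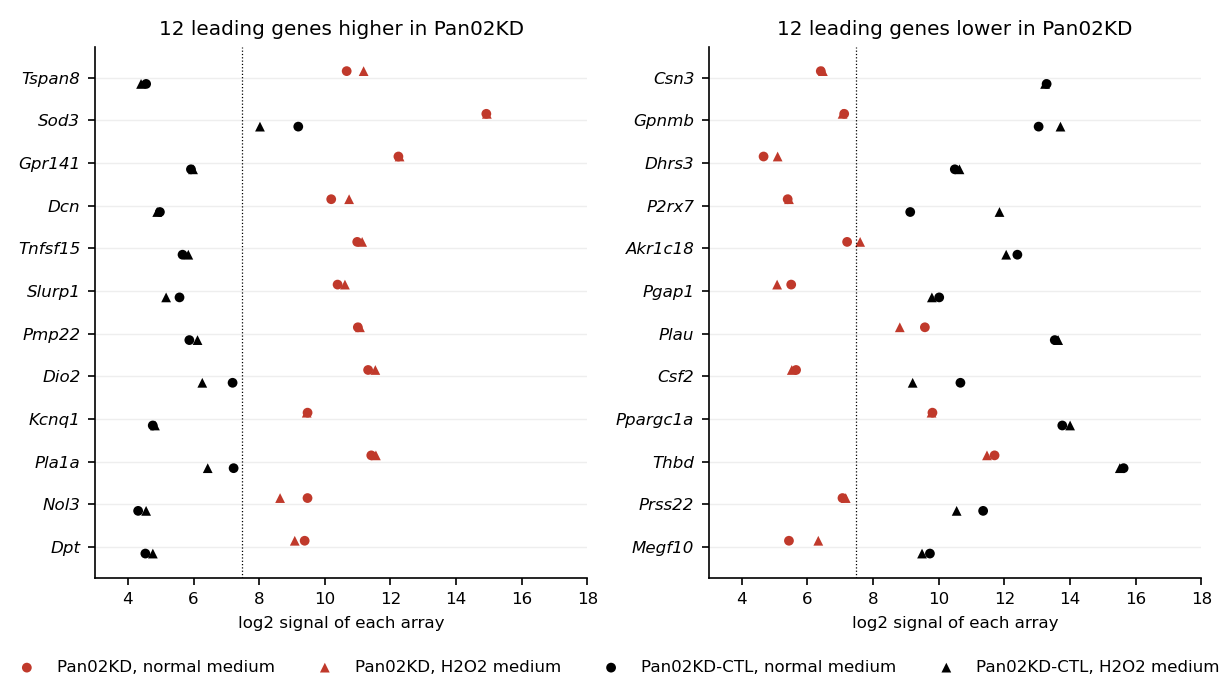
Log2 signal of each array for the 12 leading genes higher (left) and the 12 lower (right) in Pan02KD, with Pan02KD in red and Pan02KD-CTL in black, circles for normal medium and triangles for H2O2, and the brightest background probe set dotted. The lines are separate in every gene shown, and all genes were chosen for large differences of the same sign in both media. *P2rx7* in Pan02KD-CTL moves from 9.13 in normal medium to 11.85 in H2O2.

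Lysosomal genes were lower as a group in Pan02KD. The lysosome degrades what cells take up or recycle, with cathepsins and glycosidases in an interior acidified by the V-ATPase, and many of its genes carry a palindromic E-box near their start, the CLEAR motif, that the factors TFEB, TFE3 and MITF bind. Of 45 genes measured, 23 fell (51.1%) and 2 rose (4.44%), against 5.97% and 7.59% of all genes. Among genes with a mean signal above background 11.3% fell and 14.3% rose. The median difference of the list was -0.57 against -0.0032 over all genes. This list was chosen with earlier results of these data known, and its shares were not tested. *Gpnmb* (-6.28), described above, is on this list and had its largest difference. The promoters of 4 genes on the list hold the palindrome, and they are shown, with the palindrome in capitals, because all 4 genes fell. The sequences are those of RefSeq on GRCm38.p6, from 150 bases before to 25 bases after the annotated start of the gene, 5′ to 3′ on its own strand.
Ctsa, chr2:164833623-164833797, plus strand: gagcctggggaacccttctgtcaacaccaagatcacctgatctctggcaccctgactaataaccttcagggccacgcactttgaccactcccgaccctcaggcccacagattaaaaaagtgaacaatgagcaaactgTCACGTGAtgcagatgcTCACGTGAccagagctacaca
Atp6v0d1, chr8:105566040-105566214, minus strand: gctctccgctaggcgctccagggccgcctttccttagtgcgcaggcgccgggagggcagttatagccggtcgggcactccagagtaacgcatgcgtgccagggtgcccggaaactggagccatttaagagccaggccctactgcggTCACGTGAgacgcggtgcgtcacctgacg
Atp6v1a, chr16:44139235-44139409, minus strand: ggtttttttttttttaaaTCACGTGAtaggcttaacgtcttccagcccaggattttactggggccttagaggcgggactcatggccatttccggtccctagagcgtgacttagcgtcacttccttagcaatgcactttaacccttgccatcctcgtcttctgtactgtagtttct
Mcoln1, chr8:3500369-3500543, plus strand: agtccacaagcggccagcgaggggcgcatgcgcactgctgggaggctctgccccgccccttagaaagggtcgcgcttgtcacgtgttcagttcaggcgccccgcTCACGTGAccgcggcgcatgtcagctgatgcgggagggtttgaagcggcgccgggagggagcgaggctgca

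The palindrome begins 13 bases before the start in *Ctsa*, where there are 2 matches, 4 bases before it in *Atp6v0d1*, 132 in *Atp6v1a* and 46 in *Mcoln1*. *Ctsa* encodes the protective protein cathepsin A, *Atp6v0d1* and *Atp6v1a* subunits of the V-ATPase, and *Mcoln1* the lysosomal calcium channel TRPML1. *Ctsa* read 10.68 and 10.66 in Pan02KD and 12.89 and 13.06 in Pan02KD-CTL, a difference of -2.31 (SE 0.19, adjusted p = 8e-05, limma). *Atp6v0d1* read 12.40 and 12.19 against 13.53 and 13.83 (-1.38, SE 0.18), *Atp6v1a* 10.30 and 10.29 against 11.46 and 11.70 (-1.29, SE 0.16), and *Mcoln1* 9.62 and 9.50 against 10.35 and 10.91 (-1.07, SE 0.20). All 4 genes were lower on both Pan02KD arrays than on either control array. The letters TCACGTGA, the same on both strands, were looked for in windows of 300 bases (250 before and 50 after each start) and occur in 304 of 27025 genes (1.12%), against 4 of the 38 lysosomal genes with a window. Of 228 genes on the array with these letters, 40 fell (17.5%) and 11 rose (4.82%), while of the genes without them 5.70% fell and 7.72% rose. The shorter CACGTG, which TCACGTGA contains and which other factors such as MYC and USF bind, occurs in 2187 genes (8.09%), and 161 of the 1453 of them on the array fell (11.1%). These shares count genes at background too, and among the 8225 genes with a mean signal above background 11.3% fell. Whether genes with the letters are more often above background was not tested. Whether any factor binds these windows in Pan02 cells was not measured.

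Of the lysosomal genes without the palindrome in their window, *Ctsl*, a cathepsin, fell from 14.93 and 14.98 in Pan02KD-CTL to 13.04 and 12.95 in Pan02KD (-1.96, SE 0.16). *Neu1*, the sialidase that is bound by cathepsin A, fell from 10.57 and 10.81 to 8.99 and 9.02 (-1.69, SE 0.15), and *Tpp1*, a peptidase lost in a lysosomal storage disease, from 14.85 and 15.25 to 13.58 and 13.38 (-1.57, SE 0.20). The groups did not overlap in these genes, and the differences spread over enzymes of several substrates. The glycosidase genes *Idua* (-1.37), *Gaa* (-1.23), *Naglu* (-1.20), *Galns* (-0.83) and *Man2b1* (-0.82) fell, as did the cholesterol transporter *Npc1* (-1.05) and, among the brightest of the list, *Ctsb* (-0.66) and *Lamp1* (-0.62). The 2 genes that rose were *Tfe3* (0.67, SE 0.18), which encodes a factor of the MITF family, and *Ids* (0.63). *Mitf* (7.75 and 7.30 against 7.26 and 6.99) and *Tfeb* (7.05 and 7.37 against 7.01 and 6.91) lay near background and were not called. In Pan02OE, 14 of the 23 genes that fell in Pan02KD rose over Pan02OE-CTL, where 50.2% of all genes that fell in Pan02KD did so. The number of lysosomal genes that fell was 13 without Pan02KD in normal medium, 11 without Pan02KD in H2O2, 19 without Pan02KD-CTL in normal medium and 13 without it in H2O2, and 22 under cyclic loess. The 2 that rose were 0 without Pan02KD in either medium or without Pan02KD-CTL in H2O2.

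Genes that ERK signaling induces, and the inhibitors that it induces as feedback, were also lower. When a growth factor activates the RAS-ERK cascade, genes of the EGR and FOS families are transcribed within a short time, and the DUSP phosphatases and Sprouty proteins that follow them switch the cascade off. Of 28 genes measured, 15 fell (53.6%) and 1 rose (3.57%), against 5.97% and 7.59% of all genes. Of genes with a mean signal above background 11.3% fell and 14.3% rose. The median difference of the list was -0.65. This list too was chosen with earlier results of these data known, and its shares were not tested. Among the early transcription factors, *Fosb* read 7.21 and 6.42 in Pan02KD and 9.64 and 9.00 in Pan02KD-CTL, *Egr1* 12.53 and 11.77 against 14.25 and 13.20, and *Egr2* 8.58 and 8.40 against 10.93 and 10.03. *Fosb* was below the brightest background probe set on both Pan02KD arrays and at least 3.60-fold lower (measured difference -2.51, SE 0.36), and the differences of *Egr1* and *Egr2* were -1.57 (SE 0.24, adjusted p = 0.0025, limma) and -1.99 (SE 0.24). In each of these genes both lines read lower in H2O2 than in normal medium, and the lines did not overlap. Of the feedback inhibitors, *Dusp5* fell from 14.79 and 14.14 to 13.21 and 12.28 (-1.72, SE 0.24), *Spry4* from 10.21 and 9.94 to 8.12 and 8.13 (-1.95, SE 0.16), and *Dusp4* (-1.35), *Dusp6* (-0.64) and *Spry2* (-0.79) fell as well. The gene that rose was *Spry1*, by 4.19, so that members of the Sprouty family changed in opposite directions. Ligands of the EGF receptor on the list fell too, *Ereg* from 16.63 and 16.23 to 14.99 and 14.58 (-1.65, SE 0.16) and *Hbegf* from 15.91 and 15.30 to 14.74 and 14.36 (-1.06, SE 0.17).

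Not every member of the ERK list moved. *Myc* read 17.26 on both Pan02KD arrays and 17.54 and 17.30 in Pan02KD-CTL, *Etv4* 8.96 and 8.82 against 9.00 and 9.22, and *Etv5* 11.77 and 11.70 against 12.28 and 12.16, with differences of -0.16, -0.22 and -0.49 and 95% intervals of -0.51 to 0.19, -0.59 to 0.15 and -0.82 to -0.16. None of them passed the test. In Pan02OE, 8 of the 15 genes that fell in Pan02KD rose over Pan02OE-CTL, among them *Fosb*, *Spry4* and *Ereg*, while *Egr1* (-0.52), *Ier3* (-0.31) and *Dusp5* (0.75) were not called there. This share is near the 50.2% over all genes that fell in Pan02KD. The number that fell was 12 without Pan02KD in normal medium, 10 without Pan02KD in H2O2, 12 without Pan02KD-CTL in normal medium and 15 without it in H2O2.

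**Figure D3:**
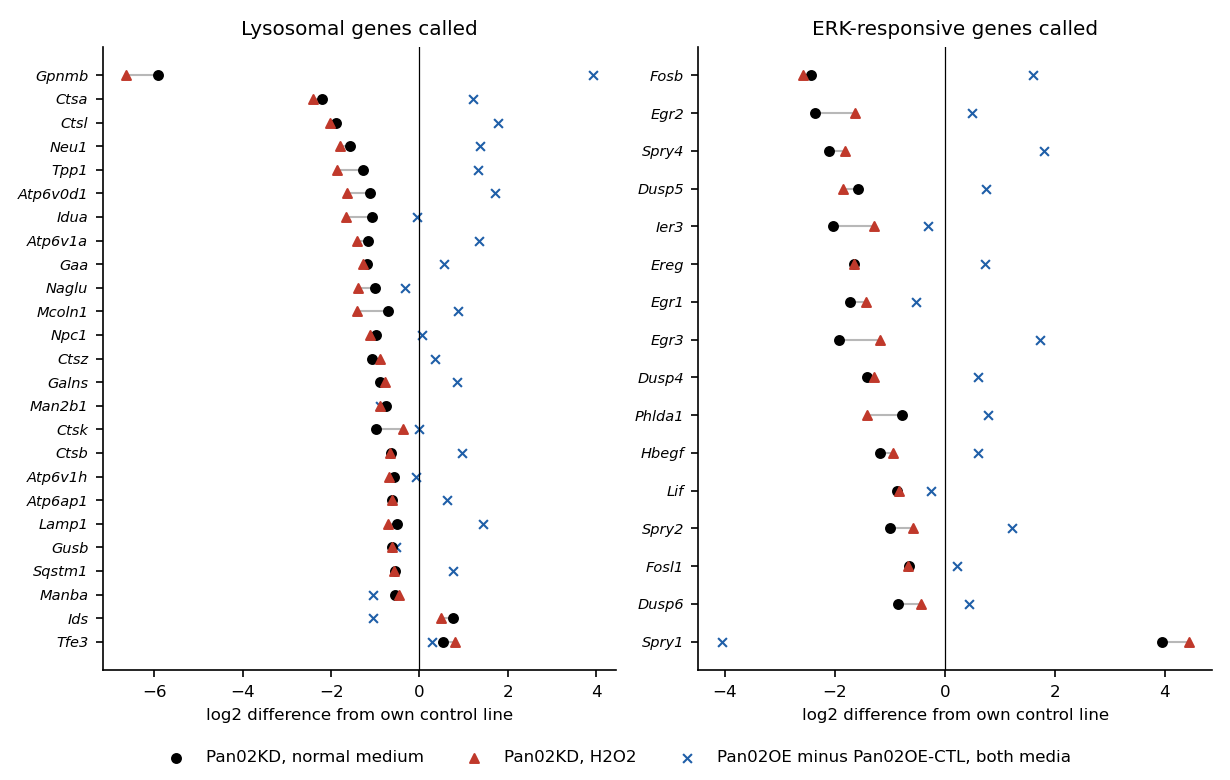
Log2 differences between Pan02KD and Pan02KD-CTL in normal medium (black circles) and in H2O2 (red triangles) for the called lysosomal genes (left, 25 genes) and ERK-responsive genes (right, 16 genes), with the difference between Pan02OE and Pan02OE-CTL over both media as blue crosses. Both media lie on the same side of 0 for every gene shown, as for all called genes, and *Spry1* lies far to the right of the other ERK-responsive genes.

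Receptor and ligand genes upstream of these pathways were called at shares near those of genes above background. Of 46 receptor tyrosine kinase and ligand genes, 6 rose and 6 fell (13% each), which is no result about the list. Over all genes 7.59% rose and 5.97% fell, and among genes with a mean signal above background 14.3% and 11.3%. *Igfbp4* and *Irs1*, the adaptor of the insulin and IGF receptors, rose, the latter from 7.29 and 7.33 to 10.12 and 10.15 (at least 6.32-fold), and *Egfr* rose by 0.79 (9.43 and 9.30 against 8.61 and 8.54). *Flt1*, a VEGF receptor at background in Pan02KD, fell by 1.51 and *Pdgfb* by 1.48 on the log2 scale. The 6 that rose were 3 without Pan02KD in H2O2 and the 6 that fell 4 without either Pan02KD array. Of 28 PI3K-AKT genes 2 rose (7.14%) and 5 fell (17.9%). *Tsc1* (-1.43), the brake on mTORC1, and the AKT target *Foxo1* (-0.90) were lower, and the regulatory subunits *Pik3r2* (1.04) and *Pik3r1* (0.77) higher. The calls of *Foxo1*, *Pik3r2* and *Pik3r3* were lost without 1 or more of the knockdown-system arrays, and of the 5 PI3K-AKT genes that fell 1 was called without Pan02KD in either medium and 2 without Pan02KD-CTL in H2O2.

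Of the genes of NF-κB signaling, a pathway that NLRX1 is known to restrain, 11 of 34 rose (32.4%) and 1 fell (2.94%). Over all genes 7.59% rose and 5.97% fell, and among genes with a mean signal above background 14.3% and 11.3%. The median difference of the list was 0.27. The genes that rose included subunits and, in larger number, inhibitors that NF-κB itself induces. *Nfkb2*, the precursor of the p52 subunit, read 13.12 and 12.98 in Pan02KD and 11.86 and 11.39 in Pan02KD-CTL (1.42, SE 0.20, adjusted p = 0.0019, limma), and *Rel* rose by 0.72. The inhibitor genes *Nfkbie* (11.11 and 10.99 against 9.47 and 9.23, 1.70, SE 0.15), *Tnfaip3* (13.84 and 13.64 against 12.86 and 12.70, 0.96), *Cyld* (0.86) and *Nfkbia* (14.18 and 14.11 against 13.56 and 13.10, 0.81) rose, as did *Nfkbiz* (0.91) and the adaptors *Traf5* (0.83), *Birc2* (0.77), *Traf2* (0.63) and *Tab1* (0.62). The gene that fell was the receptor *Tnfrsf1b* (-0.66). The count that rose was 5 without Pan02KD in normal medium, 3 without Pan02KD in H2O2, 9 without Pan02KD-CTL in normal medium and 6 without it in H2O2, and *Nfkbie* and *Nfkb2* were called under each of these. Under cyclic loess it was 11, with a median of 0.17.

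Of 53 cytokine genes 8 rose (15.1%) and 7 fell (13.2%), with a median of -0.03. Over all genes 7.59% rose and 5.97% fell, and among genes with a mean signal above background 14.3% and 11.3%. The counts lie near the latter shares and are no result about the list. *Il6* read 9.41 and 9.31 in Pan02KD and 6.49 and 5.81 in Pan02KD-CTL, at least 3.68-fold higher (measured difference 3.21, SE 0.21, adjusted p = 2.1e-05, limma). *Il18*, a cytokine matured by inflammasomes, read 9.01 and 9.51 against 5.18 and 5.21, at least 3.44-fold higher. *Il33*, an alarmin of epithelia, read 16.10 and 16.09 against 14.08 and 13.15, 5.58-fold higher (2.48, SE 0.29). These genes and *Tnfsf15*, *Tnfsf9*, *Cxcl5* (2.20), *Ccl9* (2.08) and *Cx3cl1* (0.66) rose. *Csf2* and the neutrophil attractants *Cxcl2* (13.74 and 12.66 against 14.93 and 14.32, -1.42, SE 0.20) and *Cxcl3* (-0.72) fell, although *Cxcl5*, which binds the same receptor, rose from 11.53 and 10.70 to 13.38 and 13.26. Of 45 receptor genes 8 rose and 4 fell, led by the scavenging receptor *Ackr3* (1.47) and the decoy receptor *Tnfrsf23* (-1.90), and these counts were 2 and 1 without Pan02KD in normal medium and 3 and 1 without it in H2O2. The cytokine genes that fell numbered 3 without Pan02KD in normal medium, 2 without it in H2O2 and 3 without Pan02KD-CTL in normal medium.

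NOD-like receptor and inflammasome genes other than *Nlrx1* rose in 6 of 27 cases (22.2%) and fell in 3 (11.1%). The shares over all genes were 7.59% and 5.97%, and among genes with a mean signal above background 14.3% and 11.3%. *Nod2*, a sensor of bacterial cell walls, read 8.03 and 8.05 in Pan02KD and 5.35 and 4.92 in Pan02KD-CTL, at least 1.47-fold higher (measured difference 2.90, SE 0.21). *Casp4*, the caspase of the non-canonical inflammasome, read 10.41 and 10.45 against 9.28 and 9.44 (1.07, SE 0.15), and *Gsdmd*, the pore that it opens, 10.74 and 10.85 against 9.93 and 9.45 (1.11, SE 0.19, not called without Pan02KD in H2O2). *Nlrc3* (1.14), the channel gene *Panx1* (1.01) and *Casp8* (0.68) rose as well. *P2rx7*, the ATP-gated channel that triggers NLRP3, fell, with *Naip2* (-0.87) and *Aim2* (-0.72), and 1 of these 3 calls was kept without either Pan02KD array. The canonical components were at background in both lines: *Nlrp3* read 5.01 to 5.83, *Casp1* 5.49 to 5.97 and *Il1b* 6.40 to 6.69 on the 4 arrays.

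Interferon-stimulated genes and sensors split as well, with 11 of 42 higher (26.2%), 3 lower (7.14%) and a median of 0.22. The shares over all genes were 7.59% and 5.97%, and among genes with a mean signal above background 14.3% and 11.3%. *Ifit2* read 10.16 and 10.20 in Pan02KD and 7.73 and 8.75 in Pan02KD-CTL (1.94, SE 0.24, adjusted p = 0.001, limma), *Ifit3* 11.27 and 11.24 against 9.75 and 10.10 (1.33, SE 0.18), and *Ifit1* 10.05 and 9.60 against 8.13 and 9.01 (1.26, SE 0.30). Each was lowest on the Pan02KD-CTL array in normal medium. *Ddx58*, the RNA sensor RIG-I upstream of MAVS, rose by 1.35, a call lost without either Pan02KD array or Pan02KD-CTL in normal medium. *Ifitm3*, which blocks the entry of viruses, fell from 15.72 and 15.74 to 13.99 and 14.18 (-1.65, SE 0.16) and *Ifitm1* from 10.37 and 10.35 to 8.18 and 8.10 (-2.22, SE 0.15), and *Sting1*, the adaptor of DNA sensing, fell by 0.81. *Irf7* was at background (4.09 to 4.61) and *Isg15* was not called (8.23 and 7.86 against 7.67 and 7.49). Of the 11 genes that rose, 1 fell in Pan02OE, against 56.4% of all genes that rose in Pan02KD. The count was 4 without Pan02KD in normal medium, 3 without it in H2O2, 4 without Pan02KD-CTL in normal medium and 8 without it in H2O2.

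Genes of oxidant production and of the NRF2-linked defence fell more often than they rose, 14 (26.4%) against 5 (9.43%) of 53. Over all genes 5.97% fell and 7.59% rose, and among genes with a mean signal above background 11.3% and 14.3%. *Sod3* was nevertheless among the genes that rose most. *Nfe2l2*, which encodes NRF2 itself, read 12.14 and 12.12 in Pan02KD and 13.38 and 13.32 in Pan02KD-CTL (-1.22, SE 0.15, adjusted p = 0.00074, limma). *Hmox1*, heme oxygenase-1, read 13.86 and 13.91 against 15.01 and 15.18 (-1.20, SE 0.16), and *Xdh*, the xanthine oxidoreductase that makes superoxide and urate, 11.73 and 12.23 against 13.80 and 14.34 (-2.09, SE 0.22). In each of these genes both Pan02KD arrays lay below both control arrays, in normal medium as in H2O2. The cystine transporter *Slc7a11* (-1.08), the glutathione transferases *Gsto1* (-1.12), *Gstp1* (-1.08) and *Gsta4* (-0.83), the reductases *Srxn1* (-1.01) and *Gsr* (-0.76) and *Gss* (-0.56), which completes glutathione, fell. *Gstm2* (1.61), *Gstm1* (0.83), *Prdx3* (0.64) and *Prdx4* (0.63) rose. Other genes that NRF2 is known to induce were not called, with *Gclc* at 11.56 and 11.54 against 11.45 and 11.78, *Gclm* at 12.26 and 12.19 against 12.12 and 12.53, *Txnrd1* at 14.56 and 14.33 against 14.79 and 15.01, and *Nqo1* at background. The intracellular dismutases *Sod1* (0.25, 95% interval -0.08 to 0.58) and *Sod2* (0.17, -0.19 to 0.53) were not called either. The number that fell was 7 without Pan02KD in normal medium, 6 without it in H2O2, 10 without Pan02KD-CTL in normal medium and 7 without it in H2O2.

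Of the mitochondrial genes, those of carriers, import and dynamics fell in 8 of 56 cases and rose in 1, with a median of -0.22, while the subunits of the respiratory chain rose in 6 and fell in 3 of 78, with a median of 0.06. The shares of the respiratory chain (7.69% higher and 3.85% lower) were near those of all genes (7.59% and 5.97%). They were below those of genes with a mean signal above background (14.3% and 11.3%), where 73 of the 78 had a line mean above background. The shares were not tested, and no result about the respiratory chain is drawn from them. After *Ppargc1a*, the largest difference was that of *Slc25a25*, a carrier of ATP and magnesium, from 12.21 and 11.99 in Pan02KD-CTL to 10.67 and 10.65 in Pan02KD (-1.44, SE 0.16, adjusted p = 0.00044, limma). The import gene *Timm17a* (-0.99), the fusion gene *Mfn1* (-0.77) and the chaperone *Hspd1* (-0.67) fell. *Tfam*, the factor that packs mitochondrial DNA and follows PGC-1α in other cells, was not called (8.89 and 8.50 against 8.97 and 8.69). In the respiratory chain *Cox6a2* (9.34 and 9.88 against 7.94 and 8.18) and *Cox7a2l*, which takes part in supercomplexes (13.17 and 13.25 against 12.24 and 12.07), rose by 1.55 and 1.06. The carriers, import and dynamics genes that fell numbered 3 without Pan02KD in normal medium, 3 without it in H2O2, 5 without Pan02KD-CTL in normal medium and 3 without it in H2O2.

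Of 33 genes on the list of cholesterol and fatty acid synthesis, which also holds regulators and lipid storage genes, 10 fell (30.3%) and 2 rose (6.06%). Those that fell were led by *Plin2*, the coat protein of lipid droplets (14.23 and 14.50 in Pan02KD-CTL to 12.90 and 12.69, -1.58, SE 0.17), *Pparg* (-1.10), *Insig1* (-1.10) and the desaturase *Scd1* (15.35 and 15.34 to 14.27 and 14.33, -1.05, SE 0.14). *Dhcr7*, the last step of cholesterol synthesis, rose from 10.02 and 9.61 to 11.29 and 10.95 (1.30, SE 0.19). The number that fell was 4 without Pan02KD in normal medium, 3 without it in H2O2, 6 without Pan02KD-CTL in normal medium and 7 without it in H2O2. Of 39 glycolysis and hypoxia-linked genes 5 fell (12.8%) and 4 rose (10.3%). Among genes with a mean signal above background 11.3% fell and 14.3% rose, so these counts are no result about the list. *Slc2a1*, the glucose transporter GLUT1, fell from 14.48 and 14.20 to 13.26 and 13.44 (-0.99, SE 0.17, not called without Pan02KD in normal medium), and *Egln1*, a prolyl hydroxylase that marks HIF-1α for degradation, rose by 1.42. *Ldha* (16.50 and 16.48 against 16.82 and 16.64) and *Hk2* (10.04 and 9.77 against 10.33 and 10.43) were not called. The 5 genes that fell were 0 without Pan02KD in normal medium, 1 without it in H2O2, 2 without Pan02KD-CTL in normal medium and 3 without it in H2O2.

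Matrix genes rose in 9 of 43 cases (20.9%) and fell in none by limma, where 12 had an unadjusted p under 0.05. Over all genes 7.59% rose and 5.97% fell, and among genes with a mean signal above background 14.3% and 11.3%. Besides *Dcn* and *Sparc* (16.02 and 15.90 in Pan02KD, 13.09 and 12.23 in Pan02KD-CTL), the matrix genes that rose were *Bgn*, *Col8a1*, *Loxl1*, *Col6a2*, *Col5a1*, *Loxl3* and *Emilin1*, with differences of 0.76 to 1.55. Of these, *Loxl1*, *Col6a2* and *Emilin1* read below the brightest background probe set in both lines. Of 43 genes measured, 13 had a line mean above background. *Fn1*, the brightest of them, read 17.27 and 17.15 against 17.25 and 17.16, and *Col1a1* was at background. Of the matrix proteases and their inhibitors 8 of 28 rose (28.6%) and 3 fell (10.7%). The 3 were *Plau*, its receptor *Plaur* (16.23 and 16.05 to 14.77 and 14.75, -1.38, SE 0.15) and *Mmp13* (10.67 and 9.69 to 8.69 and 7.99, -1.84, SE 0.20). *Mmp19* (1.41), *Adam8* (1.14) and the inhibitor *Timp1* (0.73) rose. The matrix genes that rose numbered 3 without Pan02KD in normal medium, 5 without it in H2O2, 9 without Pan02KD-CTL in normal medium and 4 without it in H2O2, and the proteases 5, 3, 8 and 4.

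The ductal keratins and the EMT factors moved in a mixed way. *Krt19*, a keratin of ducts, fell from 12.53 and 12.04 in Pan02KD-CTL to 9.71 and 9.54 in Pan02KD (-2.66, SE 0.17, adjusted p = 1.8e-05, limma), *Krt7* from 15.08 and 14.64 to 12.72 and 12.82 (-2.09, SE 0.18), and *Sox9*, a transcription factor of ductal cells, from 15.46 and 15.18 to 13.72 and 13.26 (-1.83, SE 0.18). *Cdh1*, the adhesion protein E-cadherin of epithelia, rose from 8.12 and 8.28 to 10.62 and 10.52 (2.37, SE 0.22), and *Cdh2*, N-cadherin of mesenchymal cells, from 8.29 and 8.05 to 9.56 and 9.66 (1.44, SE 0.16). Both cadherins were thus higher in the same arrays. Of the EMT factors *Twist1* (10.72 and 10.87 against 9.37 and 9.07, 1.57, SE 0.17) and *Zeb1* (0.91) rose, *Snai1* (-0.72) fell, and the mesenchymal filament gene *Vim* was not called (16.33 and 16.42 against 16.46 and 16.52). *Acta2*, smooth muscle actin, rose from 5.87 and 5.47 to 8.03 and 8.05, at least 1.48-fold, and *Ccn2*, a target of YAP and TGF-β, fell from 9.22 and 9.32 to 6.93 and 6.81, at least 3.46-fold. *Ccn1*, another target of YAP, read 15.59 and 15.42 against 15.83 and 15.74 and was not called. Among the tetraspanins 5 of 25 rose (20%) and 1 fell (4%), against 7.59% and 5.97% of all genes. Of genes with a mean signal above background 14.3% rose and 11.3% fell. *Tspan15* (12.89 and 12.84 against 9.93 and 9.44) and the metastasis suppressor *Cd82* (15.82 and 15.60 against 14.22 and 14.09) were higher and *Cd53* lower.

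Among proliferation genes 10 of 52 rose (19.2%) and 5 fell (9.62%), with a median of 0.24. Over all genes 7.59% rose and 5.97% fell, and among genes with a mean signal above background 14.3% and 11.3%. *Ccnd3*, a D-type cyclin, read 13.49 and 13.68 in Pan02KD and 12.13 and 12.11 in Pan02KD-CTL (1.46, SE 0.15, adjusted p = 0.00033, limma), its partner *Cdk6* rose by 0.74 and the inhibitor *Cdkn1b* by 1.23. *Mcm3* and *Cdt1*, which license origins of replication, fell by 1.07 and 0.96 on the log2 scale. *Mki67* (14.38 and 14.48 against 13.74 and 14.08), *Top2a* and *Cdk1* were not called. Cyclins and their inhibitor rose together here, and the split leaned on the scaling, with 7 higher and 6 lower under cyclic loess. The counts of higher and lower genes were 3 and 1 without Pan02KD in normal medium, 4 and 1 without it in H2O2, 4 and 5 without Pan02KD-CTL in normal medium and 8 and 2 without it in H2O2. Of 40 p53 target and apoptosis genes 5 rose and 5 fell (12.5% each). *Nol3* rose, with the death receptor *Fas* (1.50), while *Apaf1*, the core of the apoptosome (10.47 and 10.65 to 9.54 and 9.64, -0.96, SE 0.15), *Btg2* (-1.27) and *Mdm2* (-0.76) fell. *Cdkn1a*, the classical p53 target p21, read 16.94 to 17.03 on all 4 arrays. Of the 5 genes that fell, 2 were called without either Pan02KD array.

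The shares in the lists that follow are to be read against 7.59% higher and 5.97% lower over all genes. Among the 8225 genes with a mean signal above background these shares were 14.3% and 11.3%. In the stress list 6 of 41 rose (14.6%) and 2 fell (4.88%), led by the small heat shock protein *Cryab* (10.51 and 10.96 against 7.33 and 7.15, at least 9.55-fold higher), and the 6 became 1 without Pan02KD in either medium. In the TGF-β and BMP list 7 of 42 rose and 7 fell (16.7% each), with the activin antagonist *Fst* higher (13.26 and 13.15 against 10.84 and 10.92, 2.32, SE 0.15) and the BMP target *Id2* lower (10.14 and 10.29 against 12.24 and 12.36, -2.09, SE 0.20), counts that were 4 and 4 without Pan02KD in normal medium, 4 and 3 without it in H2O2 and 4 and 3 without Pan02KD-CTL in H2O2. In the Wnt list 6 of 43 rose, with the receptor *Fzd2* (1.90), and 2 fell, with the agonist *Rspo3* at background in Pan02KD (-3.26). Axon guidance and adhesion genes rose in 6 (11.5%) and fell in 8 (15.4%) of 52 cases, *Nrcam* from 12.13 and 12.06 to 15.32 and 15.26 (3.20, SE 0.17) and *Sema3a* in the other direction (9.97 and 10.54 to 7.71 and 7.46, -2.67, SE 0.20), and these counts were 3 and 3 without Pan02KD in H2O2. Of 32 genes of retinoid and xenobiotic metabolism 4 rose and 2 fell, where *Cyp1b1*, *Ahr*, the receptor that induces it (13.87 and 13.70 against 12.81 and 12.24, 1.26), and the retinol transporter *Stra6* (1.84) rose and *Dhrs3* fell. None of 40 ribosomal protein genes was called by limma, 4 of them with an unadjusted p under 0.05, and with an intensity trend and robust variances 6 rose and 2 fell.

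**Figure D4:**
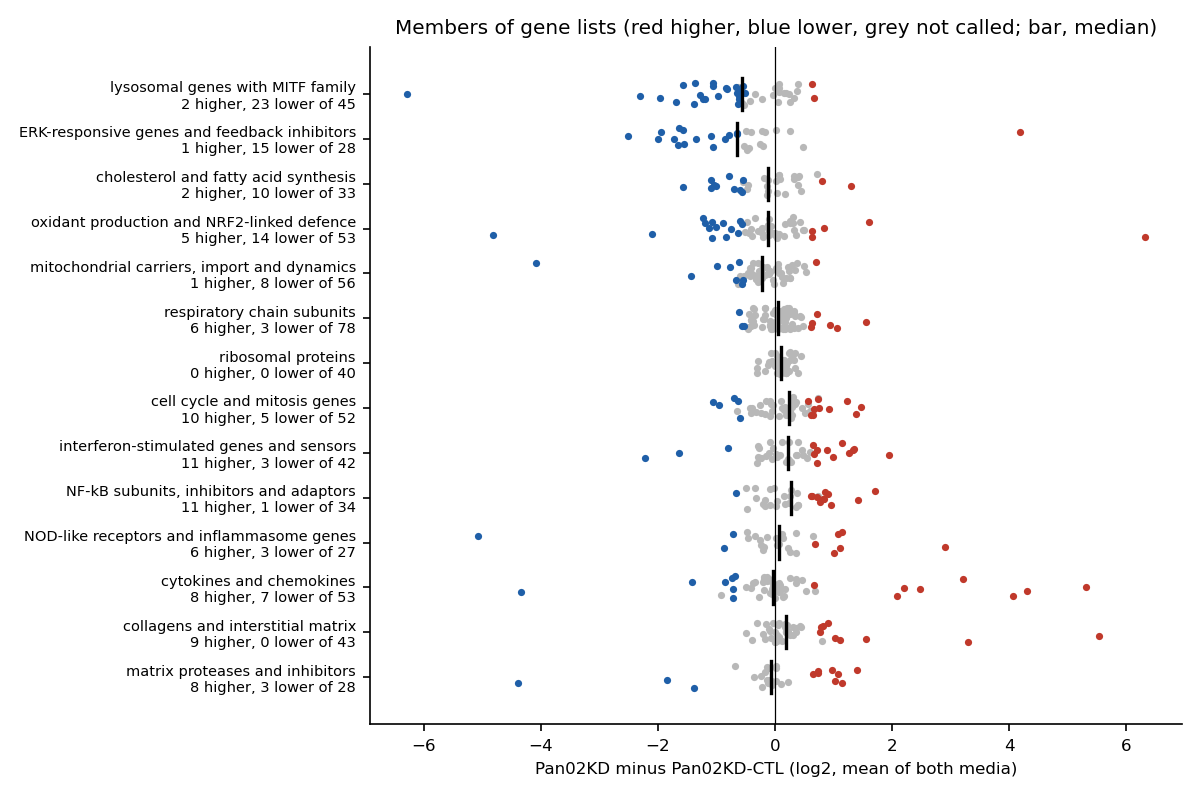
Log2 difference between Pan02KD and Pan02KD-CTL, mean of both media, for each measured member of 14 gene lists, in red where higher, blue where lower and grey where not called, with the median of each list as a black bar and its counts beside its name. The medians of the lysosomal (-0.57) and ERK-responsive genes (-0.65) lie to the left of 0, and ribosomal protein genes stay close to 0.

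The difference between the lines was compared between the media, first by counts of genes at 2-fold, which carry no test. In normal medium 1101 genes (5.64%) differed by 2-fold or more between the lines, 651 (3.34%) higher and 450 (2.31%) lower, and in H2O2 1418 (7.27%), 728 (3.73%) higher and 690 (3.54%) lower. Of the 1776 genes in either medium, 743 reached 2-fold in both with the same sign, 675 in H2O2 only and 358 in normal medium only. H2O2 against normal medium separated 50 genes by 2-fold or more in Pan02KD and 271 in Pan02KD-CTL. The Euclidean distance between the media was 39.0 in Pan02KD, 39.1 in Pan02OE, 37.7 in Pan02OE-CTL and 51.7 in Pan02KD-CTL. Pan02KD-CTL was thus the line that stood apart from the others, and the reason was not tested. A test of the difference between the media, which takes the spread from the overexpression-system arrays and leaves 1 residual degree of freedom, called 1 gene (0.00513%) of 19505, while 1520 had an unadjusted p under 0.05. That gene is *Ipw*, an imprinted non-coding RNA of the Prader-Willi region, which read 5.48 and 5.75 in Pan02KD, 5.61 in Pan02KD-CTL in normal medium and 10.35 in Pan02KD-CTL in H2O2 (difference between the media -4.46, adjusted p = 0.021, limma). It was 5.34 to 6.28 on the arrays of the other lines, so a single array was high. *P2rx7* read 5.40 and 5.44 in Pan02KD, 9.13 in Pan02KD-CTL in normal medium and 11.85 in H2O2, and the difference between the lines was -3.73 in normal medium and -6.41 in H2O2 (adjusted p = 0.47 for the media, limma). *Pde3b* behaved alike, at 5.32 and 5.40 against 6.69 and 8.71. *Vmn1r112* (5.68 and 5.37 against 5.68 and 7.54) and the multicopy gene *Btbd35f9* (5.97 and 5.89 against 5.74 and 7.58) were not lower in Pan02KD in normal medium. Both were highest on the Pan02KD-CTL array in H2O2, as *Ipw* was, there just above the brightest background probe set (7.48). In *Jmy* the lines crossed, with 7.64 against 8.51 in normal medium and 8.63 against 7.35 in H2O2. For all of these, without the Pan02KD-CTL array in H2O2 only the values in normal medium remain to compare.

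The overexpression system gave the same contrast in the other direction for many genes. Pan02OE differed from Pan02OE-CTL in 3221 genes (16.5%), 1370 (7.02%) higher and 1851 (9.49%) lower, and the comparisons share no array. In both comparisons 1488 genes were called, 56.3% of the calls in Pan02KD and 46.2% of those in Pan02OE. Of these, 835 were higher in Pan02KD and lower in Pan02OE, 585 lower in Pan02KD and higher in Pan02OE, 28 higher in both and 40 lower in both. The difference of the effects, tested directly, was called for 4353 genes (22.3%), 2404 (12.3%) with the higher effect in Pan02KD and 1949 (9.99%) with the lower. *Tspan8* was 10.67 and 11.18 in Pan02KD and 12.36 and 12.49 in Pan02OE-CTL, against 4.40 to 5.88 in Pan02KD-CTL and Pan02OE, and *Csn3* was 6.41 and 6.47 in Pan02KD and 6.29 and 5.96 in Pan02OE-CTL, against 11.56 to 13.29 in the other lines. The arrays of Pan02KD lay 68.8 from Pan02OE-CTL in normal medium and 69.6 in H2O2 (Euclidean distance over all genes), less than the 76.4 and 84.1 from their own control. Against Pan02OE-CTL, 1488 genes (7.63%) were called in Pan02KD, 682 (3.50%) higher and 806 (4.13%) lower. Pan02OE likewise lay nearer to Pan02KD-CTL (61.8 in normal medium and 71.4 in H2O2) than to its own control (89.8 and 89.2). Each modified line was thus nearer to the control of the other system than to its own, and the reason was not tested. *Nlrx1*, below the brightest background probe set in Pan02KD and Pan02KD-CTL, cannot check the labels of these arrays. The signed differences rest on those labels.

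Some of the leading genes differed in the Pan02KD comparison alone. *Dcn* read 4.78 and 4.63 in Pan02OE and 4.93 and 5.52 in Pan02OE-CTL, and its difference in Pan02KD exceeded that in Pan02OE by 6.05 (adjusted p = 2e-06, limma). *Nol3* read 4.31 and 4.14 against 4.29 and 4.67 in these lines (excess 4.87), *Akr1c18* 6.82 and 6.22 against 6.66 and 5.92 (-5.05, adjusted p = 1.4e-05, limma) and *Itih2* 10.46 and 10.70 against 10.36 and 10.07 (-3.61). *Dcn* and *Nol3* were above background in Pan02KD alone, *Akr1c18* was bright in Pan02KD-CTL alone, and *Itih2* was highest in Pan02KD-CTL and lowest in Pan02KD. *P2rx7* (-6.20) and *Ifitm1* (-2.52) also differed between the comparisons and were not called in Pan02OE. In total 1157 of the genes called in Pan02KD were not called in Pan02OE, 617 higher and 540 lower, and for 883 of them the effects differed by the test.

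A small number of genes moved in the same direction in both comparisons. *Cdh1*, *Cxcl5*, *Cnksr2*, *Clec2d*, *Trpc1* and *Adarb1* were the leading genes higher in both modified lines. *Cxcl5* read 10.12 and 10.22 in Pan02OE and 7.84 and 7.01 in Pan02OE-CTL, and *Cdh1* 10.59 and 10.94 against 8.95 and 8.32, so that E-cadherin was higher in both modified lines than in either control. The effects of *Cxcl5* (2.20 and 2.75) and *Cdh1* (2.37 and 2.13) did not differ by the test, with differences of -0.54 (adjusted p = 0.32, limma) and 0.24 (adjusted p = 0.66, limma). *Clca3a1*, *Bdkrb2*, which encodes a bradykinin receptor, *Mpp2*, *Zfp979*, *Gins1*, a subunit of the replicative helicase, and *Cobl* were the leading genes lower in both. *Bdkrb2* read 6.70 and 6.68 in Pan02KD, 9.20 and 8.50 in Pan02KD-CTL, 5.57 and 5.68 in Pan02OE and 6.88 and 7.08 in Pan02OE-CTL. The call of *Adarb1* was lost without Pan02KD or Pan02KD-CTL in H2O2, that of *Trpc1* without Pan02KD in H2O2, that of *Mpp2* without Pan02KD or Pan02KD-CTL in normal medium and that of *Gins1* without Pan02KD in H2O2 or Pan02KD-CTL in normal medium.

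Genes that rose were spread unevenly over the chromosomes. Among 8225 genes with a mean signal above background, 14.3% were higher and 11.3% lower in Pan02KD. On chromosome 13, 117 of 352 were higher (33.2%) and 20 lower (5.68%), with a median difference of 0.35 in the mean of the media, 0.32 in normal medium and 0.38 in H2O2. Chromosome 19 had 27.6% higher and 7.57% lower, and chromosome 2 the reverse, 5.62% higher and 19.6% lower. When genes were taken in 322 blocks of 25 neighbors, in the order of GRCm38.p6, 3 blocks had 13 or more genes higher, and these follow each other on chromosome 13, from *Lyst* to *Mrs2*. Of their 75 genes, 50 were higher and 1 lower, and the median difference was 0.79, a ratio of 1.73. The run holds the main cluster of histone genes, with 35 of 44 histone genes higher (median 0.89), and of its 31 other genes 15 were higher and 1 lower (median 0.54). Histone genes on other chromosomes were higher in 2 of 8 cases (median 0.43), and all 8 had a positive difference. Histone genes are nearly identical copies and their probes may read each other. The 50 genes were 23 without Pan02KD in normal medium, 16 without it in H2O2, 35 without Pan02KD-CTL in normal medium and 30 without it in H2O2, while the median stayed between 0.77 and 0.86. In Pan02OE the median was -0.92 over the 75 genes, -1.07 over the histone genes of the run and -0.08 over the 31 others. Over the 8 histone genes on other chromosomes it was -0.79, with all 8 negative and 4 of them called lower.

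On chromosome 19, 20 neighbors from *Jak2* to *Ifit1*, chosen after their values were seen, had 11 genes higher and none lower by limma, with a median difference of 1.01. They include several genes named above. *Jak2*, the kinase of cytokine receptors, read 14.09 and 14.07 in Pan02KD and 12.07 and 11.57 in Pan02KD-CTL (2.26, SE 0.19), and *Il33*, *Fas*, *Ifit1*, *Ifit2* and *Ifit3* lie in the same run. The counts of the cytokine, apoptosis and interferon lists thus include genes that are neighbors.

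**Figure D5:**
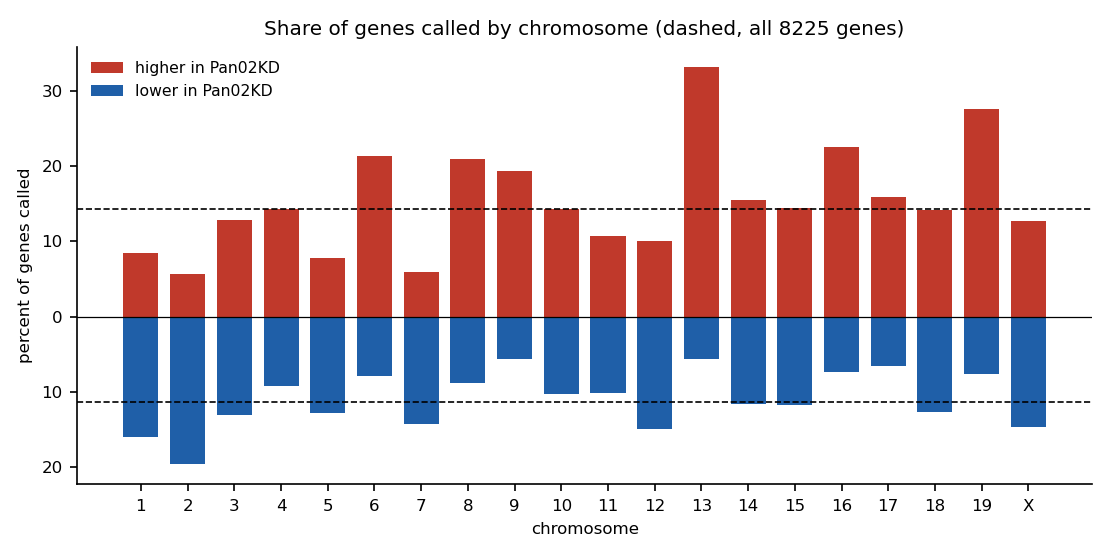
Percent of genes higher (red, upward) and lower (blue, downward) in Pan02KD on each chromosome among 8225 genes with a mean signal above background, with the shares over all of them (14.3% and 11.3%) as dashed lines. Chromosome 13 has the tallest red bar (33.2%) and chromosome 2 the longest blue bar (19.6%).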

How the data were processed

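Arrays were grouped by line and medium as their titles give them. The values deposited by the authors are log2 signals per probe set from the Transcriptome Analysis Console (version not stated). The method of summarization and normalization is likewise not given in the sources read. Of 28846 probe sets, 6640 are controls and 19572 have 1 gene symbol, and the brightest set was kept for each of 19505 genes. The values of the sample titled MRSL_Control are empty and were not used.

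Line differences come from limma 3.58.1 (R 4.3.3), fitted on line and medium over 8 arrays (3 residual degrees of freedom), with Benjamini-Hochberg adjustment over all genes. The fit was tested on simulated data. The number of arrays limits the precision. A lower bound on a fold is the mean of the brighter line against the brightest of 23 background probe sets. Alternatives were centering, cyclic loess, filters on signal, all probe sets, trend and robust variances, no medium term, the knockdown-system arrays alone and each array left out. Named are *Nlrx1*, the 12 largest differences in each direction and the 10 largest above background in both lines, of each list the 4 largest and any called, the 6 largest differences between media and the 6 leading genes in each direction called with the same sign in both systems. The members and lists were chosen with earlier results of these data known. Probe names come from GEO's platform annotation, and promoters and gene order from RefSeq tables of GRCm38.p6.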

Additional observations from a re-analysis of the deposited data

Results flagged for a closer look

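The effect in the arrays labelled Pan02KD differed between the media for *Ipw*, by -4.46 on the log2 scale (limma, adjusted p = 0.021), with the Pan02KD-CTL array in H2O2 alone high among 8 arrays. This test leaves 1 residual degree of freedom.

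The effect in Pan02KD and that in Pan02OE differed for 4353 genes (limma, adjusted p under 0.05), 2404 with the higher and 1949 with the lower value in Pan02KD.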

How the results depend on the processing

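With each of the 8 arrays left out in turn, the count of 2645 genes was 1055 to 2454, with 623 to 1389 higher and 432 to 1109 lower, and the 1949 genes with a lower effect in Pan02KD than in Pan02OE were 1237 to 2015. The low ends came without Pan02KD in H2O2. With trend and robust variances 5 genes differed between media in place of 1. At 3-fold, 318 genes differed in normal medium and 426 in H2O2. Under cyclic loess 1312 genes were higher and 1291 lower. Of 187 named genes 158 were called, and 143 of the 187 kept direction and call under all 16 alternatives, all 40 entries of leading genes among them. With an array left out the difference turned sign for *Pecam1* (-0.045 to 0.50, negative without Pan02KD in normal medium), *Jmy* (-0.54 to 0.96, negative without Pan02KD at -0.47 or Pan02KD-CTL, each in H2O2) and, at the value without Pan02KD-CTL in H2O2, *Btbd35f9* (-1.78 to 0.33), *Emcn* (-0.60 to 0.0664), *Erg* (-0.26 to 0.68) and *Ipw* (-4.84 to 0.11). None of them was called, and the cause was not tested. The arrays are paired by medium, which stood as the replicate block in the fit, and without it 2613 genes were called, 1472 higher and 1141 lower. Signals near background limit the differences of dim genes.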
